A study of Mus musculus with 11 samples.

Results

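Inflammatory CC chemokines are small secreted proteins that draw leukocytes into injured tissue, and 9 of them (Ccl2, Ccl3, Ccl4, Ccl5, Ccl6, Ccl7, Ccl9, Ccl12 and Ccl24) were followed here out of the 32285 genes counted. They were chosen as a named list by their known role, with earlier results of these data known, and all 9 are described. Single-cell RNA was counted in the right brain of 11 mice, with 1 library per mouse. The tissue was minced and digested for 30 to 60 min to free the cells. The mice formed a sham + WT group (replicates 1, 2 and 3), a sham + Lrg1-/- group (1, 2 and 5), an MCAO/R + WT group (1 and 2) and an MCAO/R + Lrg1-/- group (1, 2 and 5). MCAO/R is occlusion of the middle cerebral artery by a suture, here for 1 h, followed by reperfusion. Sham mice had the same surgery without the suture entering the internal carotid artery. The WT mice were male C57BL/6 aged 8 to 10 weeks. The Lrg1-/- mice carried a deletion in every cell, from exon 1 to the stop codon in exon 2 of Lrg1, made on C57BL/6N and backcrossed for 4 generations, and were 3 months old. Genotype therefore went together with a difference in age and in the source of the mice. The methods of the study list several reperfusion times, up to a day, without tying one to the sequenced mice, and its discussion places the tissue at 1 h without saying whether of occlusion or of reperfusion.

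CC chemokines act through receptors on leukocytes. CCL2, CCL7 and CCL12 are ligands of CCR2, the receptor by which classical monocytes leave the blood. CCL3, CCL5, CCL6 and CCL9 are ligands of CCR1, CCL4 is a close relative of CCL3, and CCL24 is an eotaxin that binds CCR3. In brain, microglial cells and the macrophages of the meninges, perivascular spaces and choroid plexus (border-associated macrophages) are well known sources of them, and several are target genes of NF-kappaB.

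The genes of 8 members lie on mouse chromosome 11 (GRCm38) in 2 groups. The CCR2 ligands lie close together: Ccl2 at chr11:82035571-82037453, plus strand, Ccl7 at chr11:82045712-82047525, plus strand and Ccl12 at chr11:82101845-82103400, plus strand. The other group holds Ccl5 (chr11:83525778-83530518, minus strand), Ccl9 (chr11:83572919-83578636, minus strand), Ccl6 (chr11:83587882-83593087, minus strand), Ccl3 (chr11:83647844-83649355, minus strand) and Ccl4 (chr11:83662584-83664683, plus strand). Ccl24 lies on chromosome 5 (chr5:135569937-135573049, minus strand). The longest exact stretch shared by the transcripts of a pair of members was 25 bases for Ccl6 and Ccl9, 23 bases for Ccl2 and Ccl7 and 17 bases for Ccl2 and Ccl12, which bears on how far their reads could be mixed up.

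Upstream sequence was available for 4 of the 9 members and is shown because Ccl3 (in both genotypes) and Ccl12 (called in Lrg1-/- mice only) differed after MCAO/R in microglial cells, and Ccl6 and Ccl9 in border-associated macrophages. Each line gives the 150 bases before the RefSeq transcript start (GRCm38.p6), read 5′ to 3′ on the strand of the gene. Capitals mark matches, on either strand, to TATAAA (the TATA box), TGANTCA (the AP-1 motif) or GGG and CC with any 5 bases between them (a loose form of the NF-kappaB motif).
Ccl3 (chr11:83649379-83649528, minus strand): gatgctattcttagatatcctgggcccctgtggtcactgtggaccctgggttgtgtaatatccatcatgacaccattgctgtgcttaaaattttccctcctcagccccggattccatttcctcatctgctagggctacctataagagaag
Ccl12 (chr11:82101695-82101844, plus strand): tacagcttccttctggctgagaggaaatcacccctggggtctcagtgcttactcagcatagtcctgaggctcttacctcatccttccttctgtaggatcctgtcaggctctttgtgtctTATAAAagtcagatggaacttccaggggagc
Ccl6 (chr11:83593088-83593237, minus strand): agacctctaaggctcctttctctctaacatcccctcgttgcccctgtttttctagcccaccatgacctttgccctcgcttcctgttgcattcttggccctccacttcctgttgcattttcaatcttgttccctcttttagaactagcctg
Ccl9 (chr11:83578637-83578786, minus strand): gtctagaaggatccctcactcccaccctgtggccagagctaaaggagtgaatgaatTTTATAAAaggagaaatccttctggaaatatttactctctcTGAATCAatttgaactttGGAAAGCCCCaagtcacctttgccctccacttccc

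Within 250 bases before the start, Ccl9 held a match to the loose NF-kappaB motif on the opposite strand (positions -35 to -26), a TGANTCA match (-53 to -47) and TATAAA matches starting at -224, -94 and -92, of which the last 2 overlap on opposite strands. Ccl12 held a TATAAA match at -31 to -26. No match to any of these motifs, or to GAGGAAGT (an ETS motif bound by PU.1), was found for Ccl3 or Ccl6 in that window. Of 32851 RefSeq promoter windows, 45.8% held the loose NF-kappaB motif, 6.75% TGANTCA, 12.4% TATAAA and 2.44% GAGGAAGT, so the first of these was common by its letters alone.

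The libraries held 37159497 to 171813031 unique molecular identifiers (UMIs, counted RNA molecules), with a median of 3190 to 11504 per cell kept. Cell types were named from clusters made without the 9 members, by markers. Of 124491 cells, 27515 were in clusters that could not be named, which was 3.83 to 18.2% of the cells of a library in sham + WT mice, 13.8 to 40.2% in sham + Lrg1-/- mice, 4.1997 to 6.11% in MCAO/R + WT mice and 9.84 to 53.3% in MCAO/R + Lrg1-/- mice. The largest of them, with 20122 cells, came nearest to neutrophils with 5 of their 9 markers. Each library shared 2.63 to 4.25% of its cell barcodes with another library. Lrg1 RNA matched the genotypes: the WT libraries had 178 to 16816 Lrg1 UMIs, and the Lrg1-/- libraries had 0 except for 1 UMI in MCAO/R + Lrg1-/- replicate 5. A count of 0 allows up to 3 UMIs in a library.

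The 6 Lrg1-/- libraries stood apart from the 5 WT libraries in RNA that microglial cells are not known to make, and in immediate early genes. Levels are given in CPM, the UMIs of a gene per 1000000 UMIs summed over the cells of a type in a library. In microglial cells the 4 haemoglobin genes of red blood cells (Hbb-bs, Hbb-bt, Hba-a1 and Hba-a2) summed to 15330 to 44812 CPM in the Lrg1-/- libraries and 15.2 to 24.6 CPM in the WT libraries. The 4 choroid plexus genes Ttr, Enpp2, Folr1 and Kl summed to 3311 to 10757 and 139 to 576 CPM. A list of 20 immediate early genes, which rise when tissue is dissociated, summed to 11560.3 to 28598 CPM in the Lrg1-/- libraries and 44394 to 51179 CPM in the WT libraries. No gene of these 3 lists was at 0 in any library. Of 4 oligodendrocyte genes, 2 were called higher in microglial cells of sham + Lrg1-/- than of sham + WT mice, Mbp (1.76) and Mobp (1.87), as log2 fold changes. Border-associated macrophages showed the same split, with the red blood cell genes at 4283 to 30986 and 13.7 to 41.03 CPM and the immediate early genes at 17168 to 34729 and 51396 to 63014 CPM. Genotype and this difference between libraries cannot be told apart in any comparison of Lrg1-/- with WT below.

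In WT libraries most Ccl3 and Ccl4 RNA came from microglial cells, while border-associated macrophages, although few, held a large share of the Ccl7 and Ccl24 RNA. Microglial cells of these libraries held 82.8 to 90.4% of all Ccl3 UMIs, 88.2 to 91.9% of Ccl4, 83.6 to 87.6% of Ccl12, 65.3 to 89.4% of Ccl9 and 73.9 to 89.1% of Ccl5. Border-associated macrophages held 36.7 to 83.7% of Ccl7, 48.1 to 83.7% of Ccl24 and 15.6 to 55.2% of Ccl2. In the Lrg1-/- libraries, in which 16.6 to 45.4% of the cells were microglial against 37.1 to 44.8% in the WT libraries, the microglial share of Ccl4 UMIs was 25.96 to 81.5% and unnamed clusters held 2.602 to 44.1%. The numbers of microglial cells behind these values were 5065, 3958 and 3523 in sham + WT mice, 1841, 1308 and 520 in sham + Lrg1-/- mice, 4191 and 4343 in MCAO/R + WT mice and 2746, 4102 and 5342 in MCAO/R + Lrg1-/- mice. Border-associated macrophages numbered 223, 205 and 203, 127, 78 and 29, 225 and 153 and 44, 206 and 76 in the same order of groups.

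**Figure D1:**
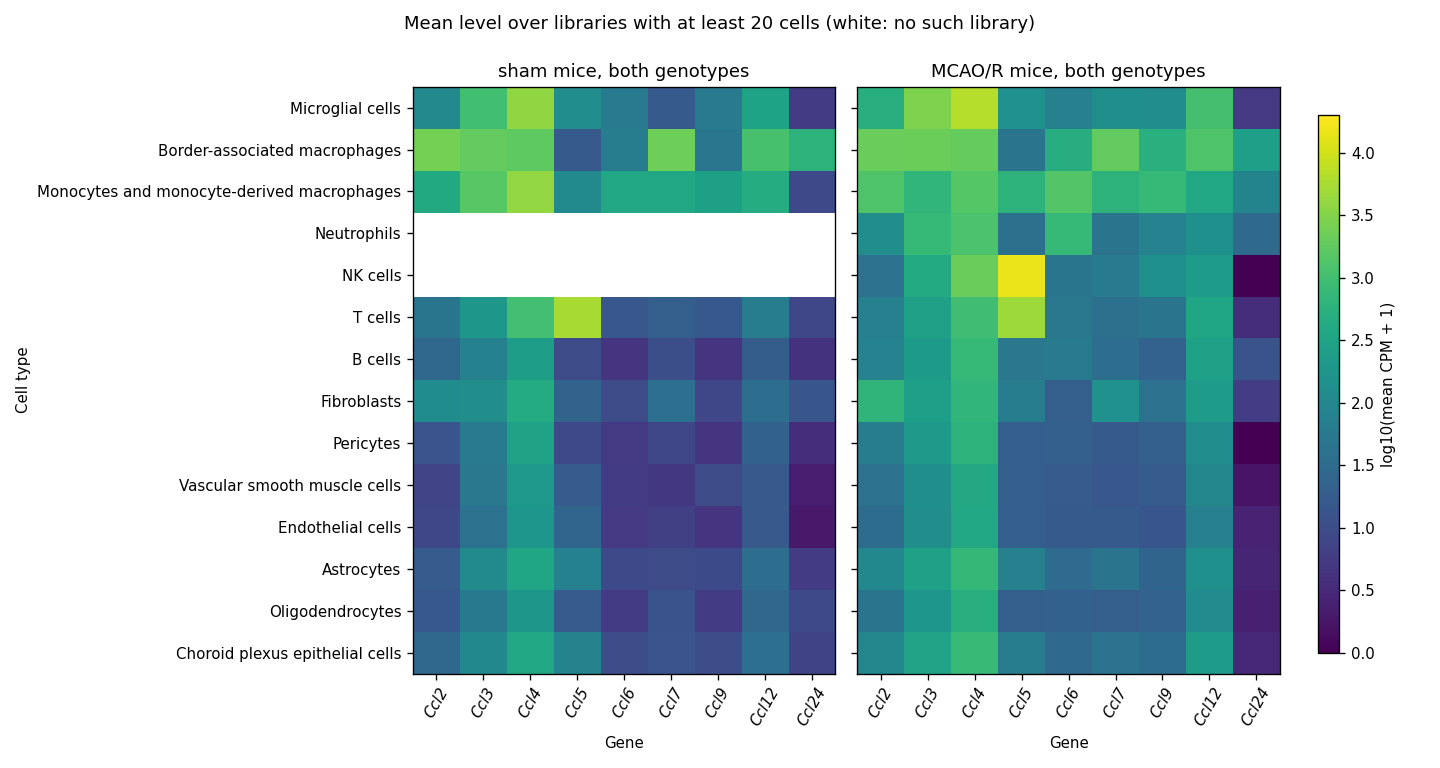
Mean level of each of the 9 members in each cell type, in sham and in MCAO/R libraries (colour, log10 of mean CPM + 1), over the libraries with at least 20 cells of the type. Ccl3 and Ccl4 are brightest in microglial cells, border-associated macrophages and monocytes, Ccl5 in NK cells and T cells, and Ccl24 in border-associated macrophages.

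Ranked by mean level, border-associated macrophages came first for Ccl2, Ccl3, Ccl7, Ccl12 and Ccl24 in sham libraries, monocytes and monocyte-derived macrophages for Ccl4, Ccl6 and Ccl9, and T cells for Ccl5. These means rest on different sets of libraries, since not every library had 20 cells of each type. In MCAO/R libraries microglial cells came first for Ccl3 and Ccl4 and NK cells for Ccl5. Ccl2 reached 1192 to 3502 CPM in border-associated macrophages against 66.4 to 709.8 CPM in microglial cells, and these ranges did not overlap. Ccl7 reached 545 to 2982 against 7.31 to 221 CPM, and Ccl24 116 to 884 against 1.45 to 7.71 CPM, again without overlap. Ccl4 went the other way in the WT libraries, with 5243 to 7872 CPM in microglial cells and 1211 to 2085 CPM in border-associated macrophages. Over all sham libraries, the levels in the first place for Ccl3 and Ccl4 overlapped those of microglial cells. Ccl3 was 774 to 2558 CPM in border-associated macrophages and 383 to 1482 CPM in microglial cells, and within each of the 6 sham libraries it was higher in border-associated macrophages. Ccl4 was 2481 to 4756 CPM in the monocytes of 3 sham libraries (2 of them WT), below the microglial values of all sham + WT libraries (5243 to 6599 CPM) and above those of all sham + Lrg1-/- libraries (1247 to 2289.7 CPM).

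Ccl5 was highest in lymphocytes, and Ccl6 and Ccl9 were high in monocytes. In NK cells, cytotoxic lymphocytes that reached 20 cells in 2 libraries (MCAO/R + Lrg1-/- replicates 2 and 5), Ccl5 was 13312 and 16068 CPM, and in T cells it was 2275 to 10686 CPM. Monocytes and monocyte-derived macrophages, which come from the blood, reached 20 cells in 7 libraries, with 699 and 676 cells in MCAO/R + Lrg1-/- replicates 2 and 5, 41 in MCAO/R + WT replicate 1 and 22 in MCAO/R + Lrg1-/- replicate 1. Their Ccl6 was 1241 CPM in MCAO/R + WT replicate 1, 269, 1782 and 2406 CPM in MCAO/R + Lrg1-/- mice and 199.9 to 512 CPM in 3 sham libraries. Ccl9 in monocytes was 818, 302, 979.6 and 898 and 131 to 463 CPM in the same order, and in MCAO/R + Lrg1-/- replicate 2 border-associated macrophages had more (1065 CPM). In neutrophils Ccl6 was 576 to 1000.1 CPM in the 4 MCAO/R libraries with enough cells. Monocytes also held Ccl2, at 2018 CPM in MCAO/R + WT replicate 1 and 1298, 978 and 957 CPM in MCAO/R + Lrg1-/- mice.

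Over 19 named cell types, the genes whose mean log2(CPM + 1) was most like that of each member were as follows, given as a description of profiles made from the same libraries. For Ccl2 they were Ifi207 (r = 0.92), Adgre1 (r = 0.92) and Clec4a1 (r = 0.91), and for Ccl7 Pf4 (r = 0.94), Clec4a1 (r = 0.93) and Mgl2 (r = 0.92). For Ccl12 they were C1qa (r = 0.96), C1qb (r = 0.96) and Cd68 (r = 0.96), of which C1qa and C1qb encode parts of complement C1q. For Ccl3 they were Fcgr3 (r = 0.97), Cd68 (r = 0.97) and C5ar1 (r = 0.96), and for Ccl4 Otulinl (r = 0.94), Cd300c2 (r = 0.93) and Mybpc3 (r = 0.93). Ccl5 was nearest to the genes Klrd1 (r = 0.97), Klrk1 (r = 0.97) and Cst7 (r = 0.96). Ccl6 was nearest to Alox5ap (r = 0.97), Fcgr4 (r = 0.97) and Lilrb4a (r = 0.97), Ccl9 to Ms4a6d (r = 0.96), Fcer1g (r = 0.95) and Tyrobp (r = 0.93) and Ccl24 to F13a1 (r = 0.95), Clec10a (r = 0.95) and Spic (r = 0.92). Among the members themselves the profiles of Ccl3 and Ccl4 (r = 0.93) and of Ccl2 and Ccl7 (r = 0.94) were close, and those of Ccl5 and Ccl24 were not (r = -0.16).

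The CCR2 ligands in microglial cells separated the MCAO/R + Lrg1-/- libraries from all sham libraries, but split the pair of MCAO/R + WT libraries. Ccl2, the main monocyte attractant, was 102, 71.2 and 66.4 CPM in sham + WT mice, 105, 85.6 and 190.3 in sham + Lrg1-/- mice, 709.8 and 112 in MCAO/R + WT mice and 685, 681 and 381 in MCAO/R + Lrg1-/- mice. Ccl7, a second CCR2 ligand encoded next to it, was 10.9, 11.5 and 7.31, 26.4, 24.5 and 13.1, 134 and 7.49 and 206, 221 and 123 CPM in the same order of groups and replicates. Ccl12, a rodent CCR2 ligand, was 476, 375 and 369, 209.8, 182 and 230.4, 1038 and 164 and 1956, 1258 and 936 CPM. For these 3 genes MCAO/R + WT replicate 1 was within or near the MCAO/R + Lrg1-/- range, whereas replicate 2 was near sham + WT mice for Ccl2 and Ccl7 and below it for Ccl12.

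Ccl3, Ccl4 and Ccl5 behaved differently from these and from each other. Ccl3 was 1361, 1482 and 1144 CPM in sham + WT mice, 811, 383 and 692 in sham + Lrg1-/- mice, 3832 and 4001 in MCAO/R + WT mice and 1707, 3181 and 2094 in MCAO/R + Lrg1-/- mice, and here both MCAO/R + WT libraries lay above every other library. Ccl4 was 5791, 6599 and 5243, 2289.7, 1247 and 1769, 7872 and 6265 and 4272, 8871 and 5943 CPM. The 3 sham + Lrg1-/- values of Ccl4 were the lowest, and the other 3 groups overlapped. Ccl5 was 183, 255 and 196, 39.6, 19.7 and 58.3, 502 and 64.7 and 67.2, 59.03 and 41.4 CPM. The 3 sham + WT libraries and MCAO/R + WT replicate 1 were above every Lrg1-/- library, and MCAO/R + WT replicate 2 was at the level of the highest of them.

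The CCR1 ligands Ccl6 and Ccl9 were low in microglial cells. Ccl6 was 68.7, 67.2 and 69.5 CPM in sham + WT mice, 39.5, 47.8 and 53.5 in sham + Lrg1-/- mice, 38.4 and 56.1 in MCAO/R + WT mice and 66.1, 124 and 86.4 in MCAO/R + Lrg1-/- mice. Ccl9 was 66.6, 67.1 and 66.8, 57.7, 56.5 and 49.2, 94.2 and 39.2 and 149.6, 280.5 and 97.5 CPM. Both were highest in MCAO/R + Lrg1-/- replicate 2, and MCAO/R + WT mice were not above sham + WT mice for Ccl6. Ccl24 was 1.45 to 7.71 CPM in microglial cells and passed the test in no comparison there.

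**Figure D2:**
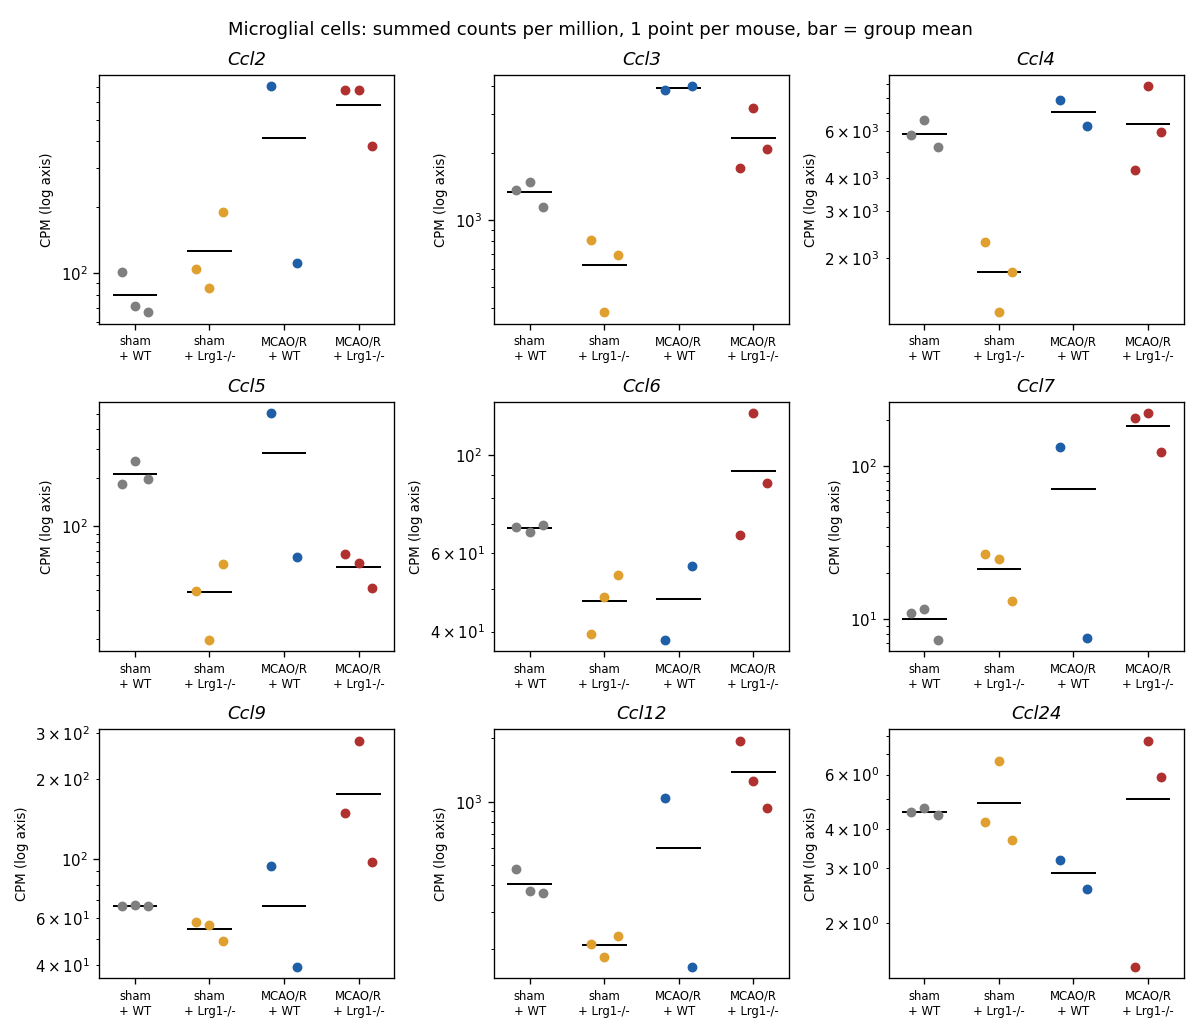
Level of each member in microglial cells (CPM, log scale) in each of the 11 libraries, grouped by surgery and genotype, where a point is a mouse and a bar is the group mean. The 2 MCAO/R + WT points are close for Ccl3 and far apart for Ccl2, Ccl5, Ccl7 and Ccl12.

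After MCAO/R in WT mice, 3 of the 9 members tested rose in microglial cells, which were Ccl3, Ccl2 and Ccl7, and none fell. A gene is said to have risen or fallen where its adjusted p from edgeR's quasi-likelihood test over all genes tested in the cell type was under 0.05 and its natural log fold change was over 0.25 in size. Of all 18587 genes tested, 16.7% were called. Ccl3 went from 1329 ± 172 (SD, n = 3) to 3916 ± 119.9 (SD, n = 2) CPM, a log2 change of 1.58 ± 0.33 (SE, adjusted p = 0.0054). Ccl2 went from 79.8 ± 19.1 (SD, n = 3) to 411 ± 423 (SD, n = 2) CPM, with a log2 change of 2.40 ± 0.57 (SE, adjusted p = 0.012), and Ccl7 had one of 2.87 ± 0.73 (SE, adjusted p = 0.018). Ccl4 had a log2 change of 0.28 ± 0.33 (SE, adjusted p = 0.63) and Ccl12 one of 0.60 ± 0.52 (SE, adjusted p = 0.49). The median over the members tested was 0.46, beside 0.05 over all genes.

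The Ccl2 and Ccl7 calls rested on MCAO/R + WT replicate 1. Without it, the log2 fold change was 0.49 for Ccl2 and -0.41 for Ccl7, while Ccl3 had 1.59. The Ccl2 value without sham + WT replicate 3 was 2.28 (adjusted p = 0.053), and Ccl7 without any 1 of the 3 sham + WT libraries was at 2.69 to 3.01 (adjusted p = 0.051 to 0.074), neither of them past the threshold. Without MCAO/R + WT replicate 1, the log2 fold changes of Ccl12 and Ccl5 were -1.31 and -1.71. Without replicate 2 instead, the values were 3.20 for Ccl2, 1.40 for Ccl12 and 1.29 for Ccl5. Leaving out either MCAO/R + WT library left 1 mouse in that group, with no spread of its own, so only effect sizes are given. The direction for Ccl12 and Ccl5 thus depended on which of these mice was used.

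After MCAO/R in Lrg1-/- mice, 7 of 9 members rose in microglial cells and 0 fell, where 33.1% of all genes were called and 19.6% were called higher. Of the CCR2 ligands, Ccl7 had a log2 change of 3.20 ± 0.72 (SE, adjusted p = 0.0046), Ccl12 of 2.85 ± 0.50 (SE, adjusted p = 0.00096) and Ccl2 of 2.33 ± 0.54 (SE, adjusted p = 0.0050). Ccl4, which attracts T cells and other leukocytes, went from 1769 ± 521 (SD, n = 3) to 6362 ± 2328 (SD, n = 3) CPM, a log2 change of 1.99 ± 0.31 (SE, adjusted p = 0.00047). Ccl3 had one of 2.03 ± 0.31 (SE, adjusted p = 0.00040), and Ccl5 0.65 ± 0.56 (SE, adjusted p = 0.41). The CCR1 ligands Ccl9 (1.84 ± 0.38 (SE, adjusted p = 0.0025)) and Ccl6 (1.13 ± 0.24 (SE, adjusted p = 0.0029)) also rose, although Ccl6 in cells thinned to 1000 UMIs had 0.63 (adjusted p = 0.15). In these libraries the 3 neutrophil genes S100a8, S100a9 and Retnlg summed to 39.5 to 329 CPM in microglial cells, against 20.6 to 60.3 CPM in sham + Lrg1-/- mice, and the part of neutrophil and monocyte RNA in these values was not tested.

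Between genotypes after MCAO/R, 3 of 9 members differed in microglial cells, Ccl5 being lower and the CCR1 ligands Ccl6 and Ccl9 higher in Lrg1-/- mice, where 25.7% of all genes were called. Ccl5, which draws T cells and monocytes, was 55.9 ± 13.2 (SD, n = 3) CPM in MCAO/R + Lrg1-/- mice and 283 ± 309 (SD, n = 2) CPM in MCAO/R + WT mice, a log2 change of -2.42 ± 0.60 (SE, adjusted p = 0.012). Ccl6 was 92.1 ± 29.3 (SD, n = 3) and 47.3 ± 12.6 (SD, n = 2) CPM (0.93 ± 0.26 (SE, adjusted p = 0.021)), and Ccl9 176 ± 94.3 (SD, n = 3) and 66.7 ± 38.9 (SD, n = 2) CPM (1.35 ± 0.42 (SE, adjusted p = 0.032)). The Ccl6 and Ccl9 calls depended on which cells were named microglial. At a cluster resolution of 0.6 Ccl6 had 0.61 (adjusted p = 0.20) and Ccl9 1.05 (adjusted p = 0.083), and with another clustering seed, tried after seeing the data, they had 0.61 (adjusted p = 0.21) and 1.05 (adjusted p = 0.089). Without MCAO/R + Lrg1-/- replicate 2 they had 0.60 (adjusted p = 0.060) and 0.77 (adjusted p = 0.10). All 3 neutrophil genes were called higher in the same comparison (median log2 fold change 3.84), and their part in the Ccl6 and Ccl9 values was not tested.

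For Ccl3 the difference between the genotypes after MCAO/R was -0.79 ± 0.33 (SE, adjusted p = 0.090), although both MCAO/R + WT libraries lay above the 3 MCAO/R + Lrg1-/- libraries. For the CCR2 ligands it was 0.43 ± 0.57 (SE, adjusted p = 0.60) for Ccl2, 1.30 ± 0.75 (SE, adjusted p = 0.22) for Ccl7 and 1.12 ± 0.54 (SE, adjusted p = 0.14) for Ccl12. These values turned on MCAO/R + WT replicate 1. Compared with replicate 2 alone, MCAO/R + Lrg1-/- mice were higher in Ccl2 by 2.35, in Ccl7 by 4.58, in Ccl9 by 2.16 and in Ccl12 by 3.03 on the log2 scale. Ccl5 then had -0.25 and Ccl6 0.71. Compared with replicate 1 alone, Ccl9 had 0.85 and Ccl12 0.32. A group of 1 mouse has no spread of its own, so only effect sizes are given for these comparisons.

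Between sham genotypes, 4 members were lower in microglial cells of Lrg1-/- mice and 0 were higher, where 20.2% of all genes were called. Ccl4 was 1769 ± 521 (SD, n = 3) CPM in sham + Lrg1-/- mice and 5878 ± 682 (SD, n = 3) in sham + WT mice, a log2 change of -1.90 ± 0.31 (SE, adjusted p = 0.0013). Ccl5 had -2.62 ± 0.59 (SE, adjusted p = 0.0084), Ccl6 -0.72 ± 0.24 (SE, adjusted p = 0.048) and Ccl3 -1.24 ± 0.30 (SE, adjusted p = 0.012). Ccl2 had 0.50 ± 0.51 (SE, adjusted p = 0.51) and Ccl12 -1.14 ± 0.47 (SE, adjusted p = 0.11). The Ccl6 value without any 1 of the 6 sham libraries was -0.84 to -0.61 (adjusted p = 0.062 to 0.18) and in thinned cells -0.14 (adjusted p = 0.77), and Ccl3 without sham + Lrg1-/- replicate 2 had -0.97 (adjusted p = 0.052). In thinned cells Ccl5 had -2.01 (adjusted p = 0.063). The immediate early genes were lower in the same sham + Lrg1-/- microglial cells, with 10 of 20 called lower (Fos, Jun, Junb, Jund, Egr1, Atf3, Dusp1, Btg2, Rgs1 and Hspa1a), 0 called higher and a median log2 fold change of -0.83. Their part in the lower chemokine levels was not tested.

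The effect of surgery differed between the genotypes for 1 member in microglial cells, Ccl6, where 4.83% of all genes were called for this difference. It was 1.65 ± 0.35 (SE, adjusted p = 0.026) on the log2 scale, with Ccl6 at 1.13 after MCAO/R in Lrg1-/- mice and -0.52 in WT mice. The value without any 1 of 5 of the 6 sham libraries (all but sham + Lrg1-/- replicate 5) was 1.54 to 1.66 (adjusted p = 0.068 to 0.081), past the threshold in none, and in thinned cells it was 1.23 (adjusted p = 0.36). For Ccl4 the difference was 1.70 ± 0.46 (SE, adjusted p = 0.051), for Ccl9 1.81 ± 0.55 (SE, adjusted p = 0.077) and for Ccl12 2.26 ± 0.72 (SE, adjusted p = 0.088). With DESeq2 these 3 were called as well, at 1.68 (adjusted p = 0.0037), 1.79 (adjusted p = 0.016) and 2.24 (adjusted p = 0.015). Ccl3 had 0.45 ± 0.44 (SE, adjusted p = 0.59) and Ccl2 -0.07 ± 0.76 (SE, adjusted p = 0.97). The Ccl2 value averages the MCAO/R + WT libraries, which lay far apart, and its SE is wide. It therefore does not show that surgery had an equal effect on Ccl2 in both genotypes.

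The share of microglial cells with at least 1 UMI was compared after each cell was thinned to 1000 UMIs. In sham + WT mice 82.5 to 87.4% of microglial cells had Ccl4, against 42.6 to 60.4% in sham + Lrg1-/- mice, 81.9 to 88.3% in MCAO/R + WT mice and 73.9 to 87.6% in MCAO/R + Lrg1-/- mice. Before thinning the ranges were 97.7 to 98.9, 68.3 to 83.98, 98.02 to 99.1 and 88.4 to 98.9%. These are shares in cells freed by digestion, and the part of that step in them was not tested. Ccl3 was found in 42.3 to 49.7%, 20.6 to 28.6%, 81.9 to 83.9% and 46.1 to 66.8% of thinned cells in the same order of groups (before thinning 76.5 to 82.8, 40.5 to 50.8, 97.4 to 98.3 and 63.1 to 90.9%). The sham genotypes did not overlap for either gene, with a two-sided exact permutation p of 0.10 for Ccl4 and 0.10 for Ccl3, the smallest that 3 libraries against 3 allow. Ccl2 was found in 28.1 and 5.503% of thinned cells in MCAO/R + WT mice and 30.7, 29.01 and 18.9% in MCAO/R + Lrg1-/- mice (before thinning 66.2 and 23.2 and 46.4, 65.2 and 47.3%). Oligodendrocytes, which are not known to make these chemokines, showed Ccl4 in 11.7 to 57.9% and Ccl3 in 3.51 to 25.4% of thinned cells, at median depths of 3569.5 to 15942 UMIs against 1708 to 11718 UMIs in microglial cells.

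Within a library, Ccl3 and Ccl4 were often found in the same microglial cells. After thinning, Ccl4 was present in 59.5 to 93.6% of microglial cells with Ccl3 and in 37.8 to 81.2% of those without it, over the 11 libraries. Ccl2 and Ccl7 were joined in the same way in border-associated macrophages, where Ccl7 was present in 33.3 to 80.3% of cells with Ccl2 and in 5.56 to 47.2% of those without it. In the same cells Ccl12 was more frequent with Ccl2 than without it in 10 of 11 libraries and less in MCAO/R + WT replicate 1 (38.8 against 49.3%), and Ccl9 was more frequent with Ccl6 in 9 of 10 libraries and less in sham + WT replicate 2 (0 against 2.62%, from 14 cells with Ccl6). Ccl4 RNA was spread over many cells, with the top 10% of sham + WT microglial cells holding 32.3 to 36.7% of its UMIs. For Ccl2 in MCAO/R + Lrg1-/- mice the top 10% held 61.5 to 69.6%. These shares come from different groups and from genes at different levels, so they do not compare how Ccl4 and Ccl2 were spread.

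Microglial cells fell into 4 clusters, and the mix of clusters differed between libraries. Cluster 0.0, with the homeostatic gene P2ry12 among its leading genes, made up 79.8, 93.1 and 95.004% of microglial cells in sham + WT mice, 43.1 and 85.7% in MCAO/R + WT mice, 9.07, 7.03 and 15% in sham + Lrg1-/- mice and 1.09, 2.36 and 3.07% in MCAO/R + Lrg1-/- mice. Cluster 0.1 was led by Lpl, Lilr4b, Lilrb4a, Msr1, Adam8, Gpr84, Osm, Spp1, Cd72 and Tnf and met 3 of the 9 microglial markers. It made up 1.64, 2.501 and 1.25%, 48.1 and 11.4%, 5.703, 3.44 and 5% and 5.46, 54.9 and 41.9% in the same order. Clusters 0.2 and 1.1 had lower median depths of 3949 and 1801 UMIs per cell, against 9548 in cluster 0.0, and held most microglial cells of sham + Lrg1-/- mice (50.1, 45.3 and 38.7% and 35.1, 44.3 and 41.3%). Cluster 1.1, led by genes such as Spp1, Cd72, Lpl and Cst7 and meeting 4 of the 9 markers, also held 90.3, 23.6 and 11.2% of those of MCAO/R + Lrg1-/- mice. The groups were therefore compared over microglial cells that sat mostly in cluster 0.0 in the WT libraries other than MCAO/R + WT replicate 1, and mostly in clusters 0.1, 0.2 and 1.1 in the Lrg1-/- libraries. No test was made on the clusters, since the genes that define them differ between the groups. With another clustering seed, tried after seeing the data, a cluster of 6630 cells was also led by Spp1, Cd72, Lpl and Cst7. It was left unnamed and came nearest to red blood cells, ahead of microglial cells. The microglial values of MCAO/R + Lrg1-/- replicate 1 thus rested mostly on a cluster, 1.1, whose name depended on the seed.

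In both MCAO/R + WT libraries Ccl2 was higher in cluster 0.1 than in cluster 0.0. Within cluster 0.0 it was 91.8 and 59.2 CPM in MCAO/R + WT mice and 60.9 to 99.7 CPM in sham + WT mice. Within cluster 0.1 it was 1069 and 401 CPM in MCAO/R + WT mice, 124 to 277 CPM in sham + WT mice, 545 to 892 CPM in MCAO/R + Lrg1-/- mice and 262 to 1019 CPM in sham + Lrg1-/- mice, where the cluster had few cells. The sham + Lrg1-/- range overlapped those of both MCAO/R groups. The share of cells in cluster 0.1 was 48.1 and 11.4% in MCAO/R + WT replicates 1 and 2, and their Ccl2 also differed inside clusters, with 1326 and 8.77 CPM in cluster 1.1, where replicate 2 had 1 UMI in 37 cells. For Ccl3, MCAO/R + WT mice were above sham + WT mice within cluster 0.0 and cluster 0.1, while in cluster 1.1 they overlapped (834 to 1189 and 548 to 1208 CPM). Ccl3 was 2921 and 3719 CPM in cluster 0.0 of MCAO/R + WT mice against 1094 to 1413 CPM in sham + WT mice, and 4482 and 5650.4 against 3557 to 4391 CPM in cluster 0.1. Sham + WT cells of cluster 0.1 thus had as much Ccl3 as MCAO/R + WT cells of cluster 0.0.

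Ccl12 split the pair of MCAO/R + WT libraries inside clusters as well. In cluster 0.1 it was 1376 and 264 CPM in MCAO/R + WT mice and 1128 to 1680.2 CPM in MCAO/R + Lrg1-/- mice, and in cluster 1.1 it was 3114 and 184 and 2057 to 2452 CPM. Ccl5 in cluster 0.1 was 750.1 and 146 CPM in MCAO/R + WT mice and 43.5 to 62.1 CPM in MCAO/R + Lrg1-/- mice, which did not overlap. In cluster 0.0 Ccl5 was 54.8 and 50.6 CPM in MCAO/R + WT mice, below the 185 to 259 CPM of sham + WT mice. The higher Ccl5 of MCAO/R + WT replicate 1 was thus not seen in cluster 0.0, but in cluster 0.1 and in cluster 1.1, where it was 1347 CPM against 15.6 to 244 CPM in sham + WT mice. Replicate 2 had no Ccl5 UMI in its 37 cells of cluster 1.1, where 1 UMI was worth 8.77 CPM. Ccl4 was lower in sham + Lrg1-/- than in sham + WT mice in each of the 4 clusters, with 1330.2 to 2583 against 5191 to 6569 CPM in cluster 0.0 and 4351 to 5719 against 9129.5 to 10394 CPM in cluster 0.1, and 858 to 1677 against 3356 to 4136 and 780.1 to 1293 against 1737 to 3644 CPM in clusters 0.2 and 1.1. Ccl6 in cluster 0.0 was 38.3 to 49.5 CPM in sham + Lrg1-/- and 21.3 to 60.7 CPM in MCAO/R + Lrg1-/- mice. In cluster 0.1 it was 63.3 to 73.4 and 41.9 to 108 CPM. In clusters 0.2 and 1.1 it was 17.8 to 31.6 and 26.4 to 60.9, and 104 to 134 and 90.05 to 319 CPM. These ranges overlapped in each cluster. In WT mice Ccl6 was lower after MCAO/R in clusters 0.0 and 0.2 and overlapped in the others.

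**Figure D3:**
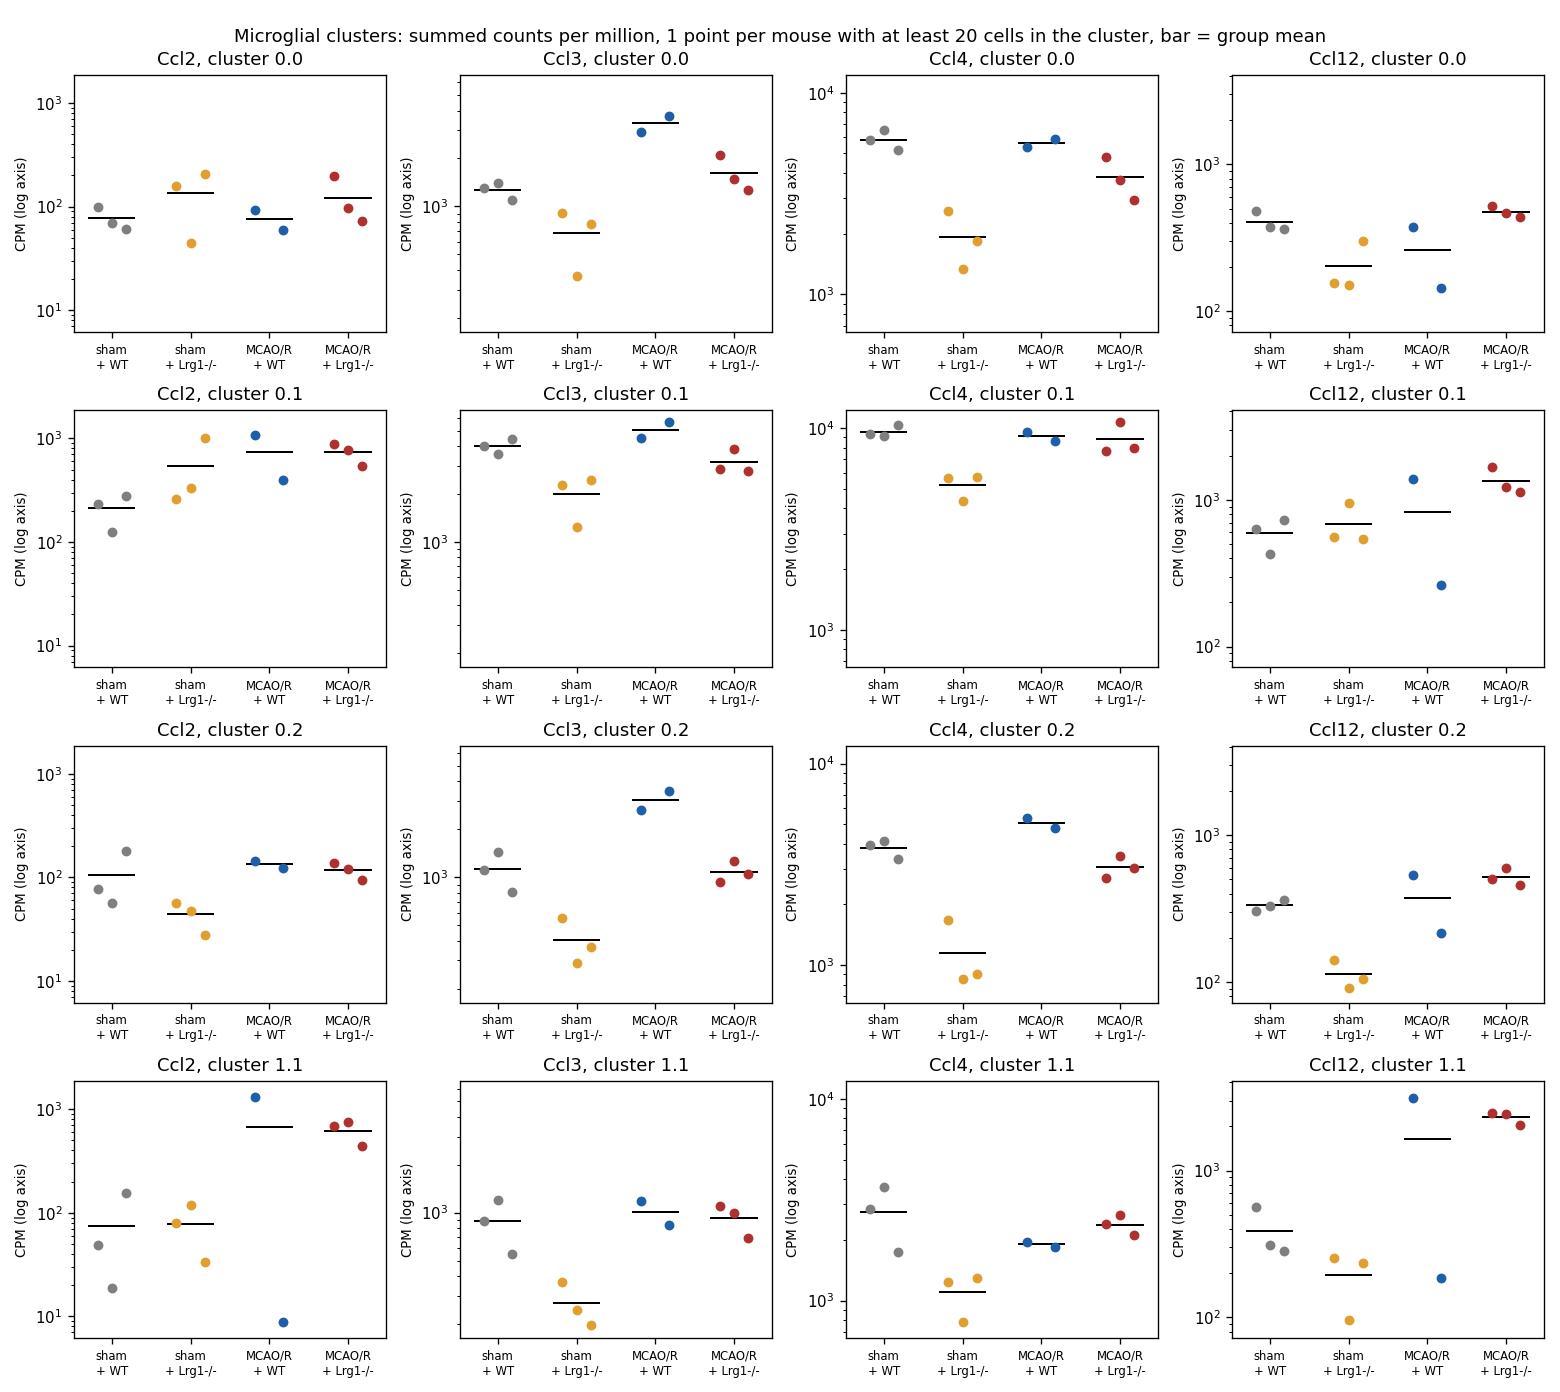
Levels of Ccl2, Ccl3, Ccl4 and Ccl12 (CPM, log axis shared by each gene) in each library within microglial clusters 0.0, 0.1, 0.2 and 1.1, where a point is a mouse with at least 20 cells in the cluster, a bar is the group mean and colours are groups. Ccl2 in MCAO/R + WT libraries is near the sham + WT level in cluster 0.0 and above it in cluster 0.1, whereas Ccl3 is above the sham + WT level in both.

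Border-associated macrophages gave a different picture, in which the CCR1 ligands Ccl6 and Ccl9 rose and the eotaxin Ccl24 fell after MCAO/R in both genotypes. Ccl6 was 50.6, 58.7 and 63.3 CPM in sham + WT mice, 51.2, 71.9 and 77.9 in sham + Lrg1-/- mice, 371 and 197 in MCAO/R + WT mice and 232, 1042 and 507 in MCAO/R + Lrg1-/- mice. Ccl9 was 28.7, 39.8 and 34.98, 53.2, 92.1 and 41.2, 550.3 and 284 and 262, 1065 and 565 CPM. Every MCAO/R library lay above every sham library for both genes. Ccl24 was 446, 584 and 601, 579.99, 555 and 884, 220.1 and 116 and 252, 389 and 356 CPM, and every MCAO/R library lay below every sham library. These cells came from 2 clusters, and the shallower one (median 1974 UMIs) held 17.5, 23.9 and 18.2% of them in sham + WT mice, 29.9, 43.6 and 55.2% in sham + Lrg1-/- mice, 12 and 7.19% in MCAO/R + WT mice and 68.2, 26.7 and 56.6% in MCAO/R + Lrg1-/- mice.

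In WT border-associated macrophages 3 of 9 members were called, where 9.56% of 11033 genes were. The log2 fold change was 3.58 ± 0.44 (SE, adjusted p = 8.4e-05) for Ccl9, 2.29 ± 0.42 (SE, adjusted p = 0.0021) for Ccl6 and -1.70 ± 0.28 (SE, adjusted p = 0.00094) for Ccl24. In Lrg1-/- mice the same 3 of 9 were called, where 12.5% of all genes were, with 3.34 ± 0.44 (SE, adjusted p = 0.00037) for Ccl9, 3.29 ± 0.44 (SE, adjusted p = 0.00038) for Ccl6 and -0.92 ± 0.25 (SE, adjusted p = 0.022) for Ccl24. The Ccl24 call in Lrg1-/- mice was lost in other settings, with -0.63 (adjusted p = 0.27) in thinned cells and -0.58 (adjusted p = 0.17) over libraries with at least 50 of these cells, and without any 1 of sham + Lrg1-/- replicates 1 and 5 and MCAO/R + Lrg1-/- replicates 1 and 5 it was -0.97 to -0.74 (adjusted p = 0.052 to 0.081). The summed level of 9 marker genes of monocytes in these cells was 33.8 to 54.3 CPM in MCAO/R + WT mice and 90.5 to 438 CPM in MCAO/R + Lrg1-/- mice, against 15.7 to 68.7 CPM in sham libraries. The neutrophil genes were 11.7 to 26.8, 14.7 to 856 and 0.562 to 41.2 CPM. Both cell types are high in Ccl6, and the part of their RNA in the Ccl6 and Ccl9 values was not tested.

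In border-associated macrophages the CCR2 ligand genes Ccl2, Ccl7 and Ccl12 passed the test in neither genotype after MCAO/R. Ccl2 was 1519, 1909.8 and 1919 CPM in sham + WT mice and 2985 and 1192 CPM in MCAO/R + WT mice (0.22 ± 0.31 (SE, adjusted p = 0.75)), and 3233, 3502 and 3293 and 1639, 2853 and 1541 CPM in the Lrg1-/- groups (-0.68 ± 0.28 (SE, adjusted p = 0.12)). Ccl7 was 1661, 1980.1 and 2038, 2589, 2982 and 2446, 1912 and 545 and 1702, 2924 and 2321 CPM over the 4 groups in the order above. Ccl12 was 671, 923 and 772 CPM in sham + WT mice and 1422, 993 and 1988 CPM in sham + Lrg1-/- mice, with log2 changes after MCAO/R of -0.16 ± 0.33 (SE, adjusted p = 0.84) and 0.29 ± 0.30 (SE, adjusted p = 0.58). MCAO/R + WT replicate 2 was the lowest of the 11 libraries for all 3 genes.

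Between genotypes after MCAO/R, 3 of 9 members differed in border-associated macrophages, where 19.6% of all genes were called. Ccl3 was 954, 1381 and 1428 CPM in MCAO/R + Lrg1-/- mice and 2949 and 3895 CPM in MCAO/R + WT mice, a log2 change of -1.49 ± 0.27 (SE, adjusted p = 0.0014). Ccl12 was 1822, 1909 and 1412 and 1053 and 365 CPM (1.21 ± 0.34 (SE, adjusted p = 0.022)), and Ccl24 was also higher (0.93 ± 0.28 (SE, adjusted p = 0.026)). Compared with MCAO/R + WT replicate 1 alone, Ccl12 had 0.60 and Ccl24 0.52, and without MCAO/R + Lrg1-/- replicate 2 they had 1.13 (adjusted p = 0.063) and 0.80 (adjusted p = 0.10). Ccl3 was lower in sham + Lrg1-/- mice too, at 1711, 1213 and 774 against 2474, 2463 and 2558 CPM (-1.10 ± 0.25 (SE, adjusted p = 0.023); -1.11 to -0.81 (adjusted p = 0.064 to 0.10) without any 1 of the sham libraries other than sham + Lrg1-/- replicate 1), where 3.24% of all genes were called. For the difference between the genotypes in the effect of surgery, 0 of 9 members were called with edgeR, where 0.39% of all genes were, 3 had an unadjusted p under 0.05 and 0 were called with DESeq2.

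**Figure D4:**
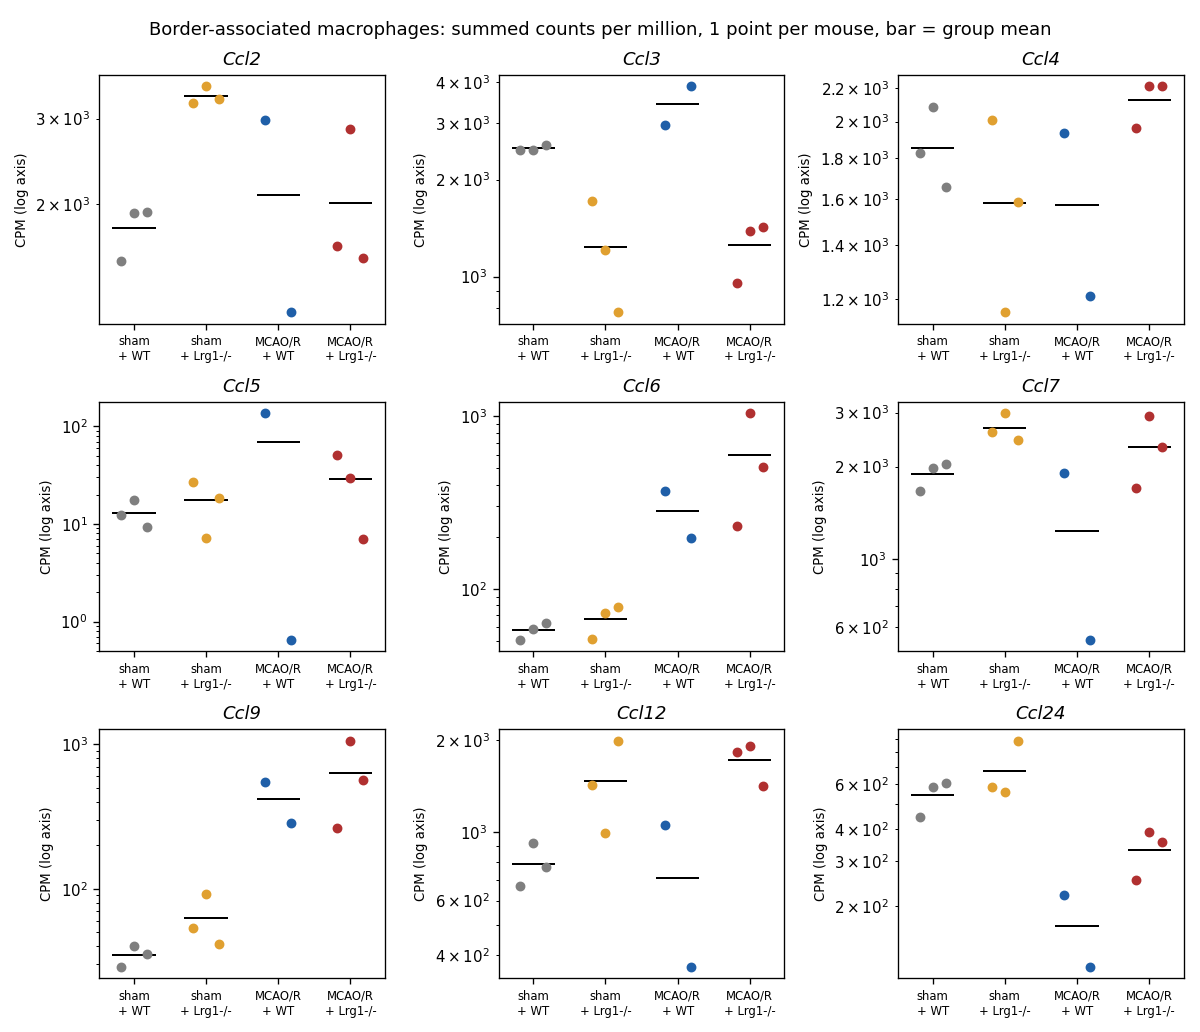
Level of each member in border-associated macrophages (CPM, log scale) in each of the 11 libraries, grouped by surgery and genotype, where a point is a mouse and a bar is the group mean. Ccl6 and Ccl9 are above all sham points in every MCAO/R library, and Ccl24 is below them.

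Ccl3 and Ccl4, which lie next to each other in the genome, were not held in a fixed ratio. In microglial cells there were 23.5, 22.5 and 21.8 Ccl3 UMIs per 100 Ccl4 UMIs in sham + WT mice, 35.4, 30.7 and 39.1 in sham + Lrg1-/- mice, 48.7 and 63.9 in MCAO/R + WT mice and 39.96, 35.9 and 35.2 in MCAO/R + Lrg1-/- mice. Both MCAO/R + WT libraries were above all others. In border-associated macrophages the ratio was higher, with 136, 118 and 154, 85.2, 105 and 48.8, 153 and 322 and 48.6, 62.4 and 64.5 in the same order. It was above the microglial ratio of the same library in 11 of 11 libraries. Oligodendrocytes and endothelial cells, by contrast, had 19.1 to 63.5 and 18.3 to 52.3 Ccl3 per 100 Ccl4 UMIs, close to the microglial range of 21.8 to 63.9.

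**Figure D5:**
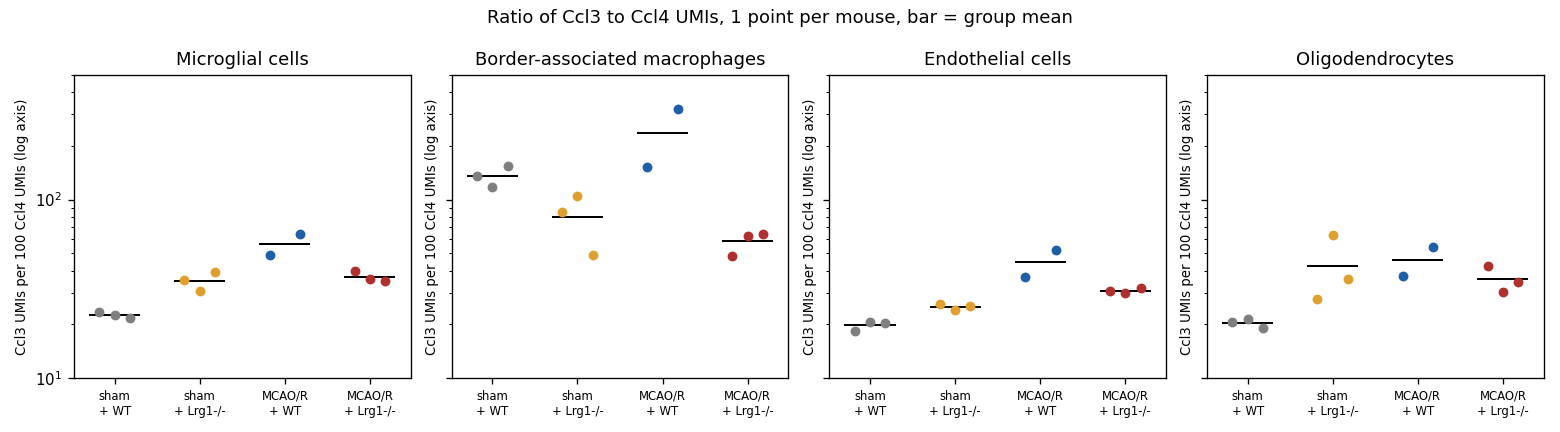
Ccl3 UMIs per 100 Ccl4 UMIs in each library (log axis) for microglial cells, border-associated macrophages and other cell types, where a point is a mouse. Endothelial cells and most oligodendrocyte points lie near the microglial value of the same library, and border-associated macrophages lie above it in every library.

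In oligodendrocytes and endothelial cells Ccl3 and Ccl4 were far below the level of microglial cells. Ccl3 in oligodendrocytes was 3.04 to 20.5% and Ccl4 3.47 to 13.9% of the microglial level of the same library, and in endothelial cells they were 3.39 to 6.93% and 3.99 to 8.04%. Counted over all cell types, 14 of 94 pairs of member and cell type rose after MCAO/R in WT mice and 1 fell, where 9.99% of all pairs of gene and cell type were called. These pairs, here and below, include 3 clusters put together by neuroblast markers (clusters 8.0, 8.2 and 8.3), the largest of which had none of these markers among its 10 leading genes and 1 of another class, so that they are counted and not described. They held 1 of the calls in this comparison, 3 after MCAO/R in Lrg1-/- mice, 4 between genotypes after MCAO/R and 0 between sham genotypes. Ccl3 rose in endothelial cells (1.67 ± 0.31 (SE, adjusted p = 0.0018)), oligodendrocytes (1.52 ± 0.30 (SE, adjusted p = 0.0023)), pericytes (1.64 ± 0.18 (SE, adjusted p = 7.6e-07)) and vascular smooth muscle cells (1.54 ± 0.29 (SE, adjusted p = 0.0024)), all near its value of 1.58 in microglial cells. Over 21 alternatives the endothelial and oligodendrocyte calls held, while the pericyte call was lost at a cluster resolution of 0.6 (0.86, adjusted p = 0.58) and the smooth muscle call with another clustering seed (0.92, adjusted p = 0.15). In choroid plexus epithelial cells Ccl3 was called too, but not without any 1 of the 5 WT libraries, and its value over the same alternatives was 1.59 to 2.15, adjusted p = 1.6e-15 to 0.34. How much of this was free RNA from microglial cells was not tested. In Lrg1-/- mice 42 of 103 pairs rose and 1 fell, where 11.0% were called. Ccl4 there rose in endothelial cells (1.68 ± 0.32 (SE, adjusted p = 0.0027)) and oligodendrocytes (2.02 ± 0.36 (SE, adjusted p = 0.0030)), and Ccl12 in endothelial cells (2.87 ± 0.55 (SE, adjusted p = 0.0029)) and vascular smooth muscle cells (3.03 ± 0.47 (SE, adjusted p = 0.00045)).

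Ccl2 and Ccl7 reached levels near those of microglial cells in fibroblasts of the meninges and vessels. There Ccl2 was 40.3 to 220.3% of the microglial level of the same library, with a median of 100.4%, and Ccl7 was 29.6 to 808%, with a median of 104%, while Ccl4 was 5.24 to 22.3%. Fibroblast Ccl2 was 1563 CPM in MCAO/R + WT replicate 1, 164 CPM in replicate 2, 688, 466 and 343 CPM in MCAO/R + Lrg1-/- mice and 34.5 to 259 CPM in sham libraries, and it passed the test in neither genotype. In endothelial cells Ccl2 was 35.2 and 4.51 CPM in MCAO/R + WT replicates 1 and 2, against 4.36 to 6.14 CPM in sham + WT mice. The fitted rises after MCAO/R in WT mice in endothelial cells (1.99 ± 0.55 (SE, adjusted p = 0.019)), vascular smooth muscle cells (2.56 ± 0.67 (SE, adjusted p = 0.017)) and oligodendrocytes (1.83 ± 0.62 (SE, adjusted p = 0.046)) came from replicate 1. Without it the log2 fold changes were -0.19, -0.59 and 0.11. In Lrg1-/- mice Ccl2 had 2.15 ± 0.54 (SE, adjusted p = 0.012) in endothelial cells and 2.14 ± 0.55 (SE, adjusted p = 0.015) in vascular smooth muscle cells, beside 2.33 in microglial cells, and both calls were lost in at least 1 setting (1.82 to 2.65, adjusted p = 8.0e-07 to 0.057 and 0.82 to 3.24, adjusted p = 2.5e-15 to 0.45 over 21 alternatives). Its level there was 3.29 to 12.3 and 2.497 to 14.1% of the microglial level, with medians of 6.64 and 6.79%, where those of Ccl4 were 5.197 and 5.88%. The part of free RNA from microglial cells was not tested.

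Between genotypes after MCAO/R, Ccl6 was higher in Lrg1-/- mice in 9 of 12 cell types tested and Ccl9 in 9 of 12, microglial cells and clusters 8.0, 8.2 and 8.3 included and border-associated macrophages not. Over all members 29 of 103 pairs of member and cell type were higher and 2 lower, where 15.2% of all pairs of gene and cell type were called and 8.09% were called higher. In oligodendrocytes Ccl6 was 11.2, 45.1 and 39.7 CPM in MCAO/R + Lrg1-/- mice and 3.202 and 3.02 CPM in MCAO/R + WT mice (3.50 ± 0.48 (SE, adjusted p = 0.00030)), and Ccl9 was 14.4, 57.4 and 26.3 and 5.38 and 1.91 CPM (3.36 ± 0.54 (SE, adjusted p = 0.00077)). Of these oligodendrocytes, a shallow cluster (median 3057 UMIs) held 3645 cells of MCAO/R + Lrg1-/- mice and 254 of MCAO/R + WT mice. A deeper one (median 13149 UMIs) held 898 and 2688, and the part of this mix in the values was not tested. Neutrophils and monocytes made up 0.578, 5.89 and 5.74% of all cells in the MCAO/R + Lrg1-/- libraries and 0.962 and 0.538% of the MCAO/R + WT libraries. These shares leave out an unnamed cluster led by the neutrophil and monocyte genes S100a9, Chil3 and S100a8, with 500, 442 and 16171 cells in MCAO/R + Lrg1-/- mice and 116 and 75 cells in MCAO/R + WT mice. The part of these cells in the Ccl6 and Ccl9 values of other cell types was not tested. Between sham genotypes 10 of 95 pairs were higher and 8 lower in Lrg1-/- mice, where 10.5% were called, and the difference in the effect of surgery was called for 1 of 86 pairs, where 1.43% were.

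T cells had high Ccl5 in every group, with 2275, 2325 and 4697 CPM in sham + WT mice, 5815, 10686 and 7597 in sham + Lrg1-/- mice, 3125 in MCAO/R + WT replicate 1 and 3326, 6269 and 5696 in MCAO/R + Lrg1-/- mice. MCAO/R + WT replicate 2 had too few T cells to give a value. Ccl5 was higher in T cells of sham + Lrg1-/- mice than of sham + WT mice (1.32 ± 0.34 (SE, adjusted p = 0.029)), the reverse of its direction in microglial cells (-2.62). Ccl4 and Ccl12 were lower in T cells of sham + Lrg1-/- mice, with -0.85 ± 0.23 (SE, adjusted p = 0.036) and -1.57 ± 0.39 (SE, adjusted p = 0.026). A T cell cluster with Nkg7 and Gzma among its leading genes held 53 cells of sham + WT and 168 of sham + Lrg1-/- mice. The other T cell clusters held 84 and 106 and 4 and 9. The part of this mix, and of free RNA from other cells, in these values was not tested. Between the sham genotypes 3 of 9 members were called in T cells, beside 790 of all 9080 genes tested. All 3 calls were lost without any 1 of several sham libraries (sham + WT replicates 1 and 2 and sham + Lrg1-/- replicate 2 for each of them), and the values over 21 alternatives were 1.13 to 1.82, adjusted p = 3.0e-07 to 0.11 for Ccl5, -1.09 to -0.17, adjusted p = 0.0066 to 0.70 for Ccl4 and -1.95 to -0.64, adjusted p = 4.8e-06 to 0.69 for Ccl12. In the cluster of red blood cells, which have no nucleus, Ccl12 was 30.1, 14.8 and 26.1 CPM in sham + Lrg1-/- mice and 422, 248 and 257 CPM in MCAO/R + Lrg1-/- mice (2.93 ± 0.40 (SE, adjusted p = 0.0046)), a call lost without sham + Lrg1-/- replicate 2. The 9 microglial marker genes summed to 669 to 961 and 779 to 1344 CPM in that cluster, and the part of free RNA in it was not tested. In fibroblasts and neutrophils no member was called in any comparison with edgeR, but few genes of any kind were, between 1 and 98 of 10716 in the comparisons of fibroblasts and 14 of 7945 in the 1 comparison of neutrophils. Of the 54 tests of members there, 20 had an unadjusted p under 0.05 and DESeq2 called 4.

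CC chemokine receptor genes, with atypical receptor genes among them, were counted in the same microglial cells. Of 7 receptor genes 5 could be tested, and after MCAO/R in WT mice 1 rose and 1 fell, where 16.7% of all genes were called. The eotaxin receptor gene Ccr3 fell (-3.27 ± 0.82 (SE, adjusted p = 0.015)), from 24, 24 and 40 UMIs to 4 and 3, and the scavenging receptor gene Ackr1 rose (3.46 ± 0.92 (SE, adjusted p = 0.022)) from 0.304, 0.526 and 0.219 CPM to 5.804 and 1.86. Ackr1 was among the leading genes of an endothelial cluster, and 9 endothelial marker genes summed to 281 to 326 CPM in microglial cells of sham + WT mice and 304 to 359.7 CPM in those of MCAO/R + WT mice. Their part in the Ackr1 value was not tested. In Lrg1-/- mice 3 rose and 0 fell, where 33.1% of all genes were called. Ccr1, the receptor of CCL3, CCL5, CCL6 and CCL9, was 7.18, 3.48 and 11.8 CPM in sham + Lrg1-/- mice and 10.9, 29.7 and 24.2 CPM in MCAO/R + Lrg1-/- mice (1.77 ± 0.57 (SE, adjusted p = 0.029)), while in WT mice it had 1.69 ± 0.55 (SE, adjusted p = 0.051). Ackr1 was 0.619, 1.16 and 5.39 CPM in sham + Lrg1-/- mice and 15.3, 32.6 and 2.83 CPM in MCAO/R + Lrg1-/- mice, which overlapped (3.34 ± 0.93 (SE, adjusted p = 0.015)), and the endothelial marker genes summed to 370.2 to 666 and 142 to 475 CPM there. The atypical receptor gene Ccrl2 had 0.70 ± 0.25 (SE, adjusted p = 0.045). Each of these 5 calls after MCAO/R was lost without at least 1 library, and over the alternatives they were -3.42 to -2.94, adjusted p = 0.0030 to 0.12 for Ccr3 and 2.38 to 4.07, adjusted p = 0.00064 to 0.24 for Ackr1 in WT mice, and 1.39 to 2.17, adjusted p = 0.0020 to 0.13 for Ccr1, 2.27 to 4.47, adjusted p = 0.00045 to 0.081 for Ackr1 and 0.53 to 0.90, adjusted p = 0.0052 to 0.34 for Ccrl2 in Lrg1-/- mice. Of the 2 genotypes after MCAO/R, Lrg1-/- mice were higher in Ccr2 (1.65 ± 0.38 (SE, adjusted p = 0.0085)) and lower in Ccrl2 (-1.44 ± 0.27 (SE, adjusted p = 0.0029)), with Ccr2 at 1.54, 3.07 and 2.65 against 0.628 and 0.916 CPM. Ccr2 was among the leading genes of the monocyte cluster, and the 9 monocyte marker genes summed to 82.7 to 171 against 28.8 to 79.2 CPM in these microglial cells, whose part in the Ccr2 value was not tested. Ccr2 was not called without MCAO/R + WT replicate 1, nor Ccrl2 without MCAO/R + WT replicate 2. In sham mice Ccrl2 (-1.75 ± 0.25 (SE, adjusted p = 0.00064)) was lower in Lrg1-/- mice. The effect of surgery was called as different between genotypes for 0 of 5 receptor genes with edgeR, where 4.83% of all genes were called, and 0 with DESeq2, and 2 had an unadjusted p under 0.05.

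Of 9 other CC chemokine ligand genes, 7 could be tested in microglial cells, at levels of 0 to 17.9 CPM. After MCAO/R in WT mice 2 rose and 0 fell, beside the 16.7% of all genes called. Ccl17, a ligand of CCR4, had 27 and 40 UMIs in MCAO/R + WT mice and 0, 1 and 1 in sham + WT mice (adjusted p = 0.0040), and the eotaxin gene Ccl11 had 39 and 6 and 1, 0 and 0 (adjusted p = 0.018). None was called in the other comparisons with edgeR, where 3 of 28 tests had an unadjusted p under 0.05 and DESeq2 called 2. Ccl17 was also among the leading genes of an unnamed cluster nearest to dendritic cells. The part of such cells in its microglial value was not tested.

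Genes of the NF-kappaB pathway and cytokine genes upstream of it were counted in microglial cells, where 16.7, 33.1, 25.7 and 20.2% of all genes were called in the 4 comparisons below. After MCAO/R in WT mice 4 of 16 rose in microglial cells and 0 fell (median log2 fold change 0.43, beside 0.05 over all genes). Those that rose were Tnf (1.11), Il6 (1.28), Tlr2 (1.35) and Csf1 (1.79), as log2 fold changes. They encode the cytokines TNF, IL-6 and CSF1 and the receptor TLR2. In Lrg1-/- mice 6 rose, namely Tnf (1.96), Il1a (0.58), Il1b (1.49), Nfkbia (0.86), Tlr2 (1.96) and Csf1 (1.27), and 2 fell, the subunit genes Rel (-0.98) and Relb (-0.74). After MCAO/R 6 were lower in Lrg1-/- than in WT mice and 0 higher, and those lower were Il6 (-2.44), Nfkbia (-0.89), Nfkbiz (-1.11), Rel (-1.68), Tnfaip3 (-1.84) and Tlr4 (-0.56). Nfkbia and Tnfaip3 encode inhibitors of the pathway. Between sham genotypes 7 were lower, Tnf (-1.30), Il6 (-1.77), Nfkbia (-1.22), Nfkbiz (-1.20), Rel (-0.80), Tnfaip3 (-1.15) and Tlr4 (-0.52), and Csf1 (0.96) was higher. The immediate early genes went the same way after MCAO/R, with 15 of 20 lower (Fos, Fosb, Jun, Junb, Jund, Egr1, Ier2, Ier3, Atf3, Dusp1, Btg2, Zfp36, Klf2, Klf4 and Klf6) and Nr4a1 higher in Lrg1-/- than in WT mice. Their part in these values was not tested. For the NF-kappaB list the effect of surgery was called as different between genotypes for 0 of 16 genes with edgeR, where 4.83% of all genes were called, and 0 with DESeq2, and 2 had an unadjusted p under 0.05.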

How the data were processed

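The deposited files hold, for each library, UMI counts per gene and cell barcode, as the authors made them with 10x Genomics Cell Ranger (version 7.0.1 per the file headers, where the study's methods name an earlier one) on mm10, with STAR named in the submitters' processing notes. The values are raw counts per droplet, with no removal of free RNA. Barcodes with more than 500 genes, more than 1000 UMIs and less than 25% mitochondrial UMIs were kept (132437 of 155804). In each library the 6% of barcodes with the highest simulated-doublet score were removed as doublets (7946).

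Cells were clustered on 2000 variable genes without the members (15 components, neighbours balanced over libraries, Leiden resolution 0.3) and named by markers. The limits of the naming rule were set after the clusters were seen. UMIs were summed per library and cell type (at least 20 cells) and tested with edgeR 4.0.16 (TMM, quasi-likelihood, all 4 groups in 1 fit, Benjamini-Hochberg adjustment within a cell type over every gene tested), in R 4.3.3 and Python 3.11.15. The SE of an edgeR log2 fold change was worked back from the test, as its size over the square root of the F statistic. The tested libraries are separate mice. Tested on simulated data for microglial cells of MCAO/R + WT against sham + WT mice, the fit recovered 100% of 200 genes changed 4-fold and made 12 false calls among 18587 genes. The simulation gave every gene the same spread between mice and drew the changed genes from those with a mean above 20 CPM. It does not cover genes at lower levels, such as Ccl24, or genes that varied more between mice.

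The members and lists were chosen with earlier results of these data known. All 9 members are described, whatever their test. Genes of the receptor, other-ligand and NF-kappaB lists are named where they passed the test in microglial cells, and 1 gene of the receptor list is not reported here. Immediate early genes and genes of red blood cells, choroid plexus, oligodendrocytes and neutrophils were counted as signs of how the libraries differed. Alternatives were RLE scaling, DESeq2 1.42.0, no filter on low counts, doublets kept, a 10% mitochondrial limit, cells thinned to 1000 UMIs, at least 50 cells, resolution 0.6, each library left out and the replicate number as a block. Clustering from another seed was an alternative chosen after seeing the data. Gene positions came from GENCODE on GRCm38 and promoters from RefSeq on GRCm38.p6, where 4 of 9 members matched.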

Additional observations from a re-analysis of the deposited data

Results flagged for a closer look

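The effect of MCAO/R on Ccl6 in microglial cells differed between the genotypes by 1.65 ± 0.35 on the log2 scale (SE, adjusted p = 0.026 with edgeR), being 1.13 in Lrg1-/- mice and -0.52 in WT mice. It was singled out by the test of the difference itself. The call was lost without any 1 of 5 of the 6 sham libraries (all but sham + Lrg1-/- replicate 5), at 1.54 to 1.66 (adjusted p = 0.068 to 0.081), and in thinned cells. The Ccl6 levels behind it were 67.2 to 69.5 CPM in sham + WT mice, 39.5 to 53.5 in sham + Lrg1-/- mice, 38.4 to 56.1 in MCAO/R + WT mice and 66.1 to 124 in MCAO/R + Lrg1-/- mice. The neutrophil genes S100a8, S100a9 and Retnlg summed to 39.5 to 329 CPM in the microglial cells of the last group and 11.4 to 12.3 CPM in those of MCAO/R + WT mice, and their part in the difference was not tested. Within each microglial cluster the Ccl6 range of MCAO/R + Lrg1-/- mice overlapped those of sham + Lrg1-/- and of MCAO/R + WT mice. The mix of clusters differed between the groups, and its part in the difference was not tested.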

How the results depend on the processing

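The counts of members called in microglial cells were 3 for MCAO/R in WT mice, 7 for MCAO/R in Lrg1-/- mice, 3 between genotypes after MCAO/R, 4 between sham genotypes and 1 for the difference in the effect of surgery. With each library left out in turn these counts were 1 to 5, 7 to 7, 2 to 4, 2 to 6 and 0 to 5 in the same order. Over all cell types the 15, 43, 31, 18 and 1 pairs of member and cell type called became 8 to 33, 28 to 52, 14 to 54, 7 to 24 and 0 to 14. The widest shifts came without MCAO/R + WT replicate 1 (difference in the effect of surgery 5 in microglial cells and 14 over all cell types, genotypes after MCAO/R 54) and without MCAO/R + WT replicate 2 (MCAO/R in WT mice 5 and 33, genotypes after MCAO/R 14). A library left alone in its group was taken to vary like the other groups.

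Of the tests compared that were called in the main fit or in the alternative, all that reversed did so without MCAO/R + WT replicate 1. A change of sign in a test called in neither was not counted. After MCAO/R in WT mice the log2 fold changes then were -0.41 for Ccl7, -1.31 for Ccl12 and -1.71 for Ccl5 in microglial cells, and -0.19 and -0.59 for Ccl2 in endothelial and vascular smooth muscle cells. Between genotypes after MCAO/R Ccl5 in border-associated macrophages was 5.23. The highest values with any other library left out were 3.80, 1.40, 1.29, 2.81 and 3.50 in the same order, and for Ccl5 in border-associated macrophages the lowest was -2.32.

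With no filter on low counts, 40, 80, 64, 44 and 37 pairs were called over all cell types, in the order above, and 4 members in microglial cells for the difference in the effect of surgery. The count for that difference, in microglial cells and over all cell types, was 4 and 5 with DESeq2, 2 and 2 with a 10% mitochondrial limit, 0 and 0 in thinned cells, 2 and 2 at a cluster resolution of 0.6 and 2 and 2 with another clustering seed, an alternative chosen after seeing the data. It was 2 over all cell types with doublets kept. Between genotypes after MCAO/R, resolution 0.6 gave 1 member and the other seed 1 in microglial cells. Between sham genotypes thinning gave 2 members and 5 pairs. The cause of these changes was not tested, except that thinning leaves fewer UMIs and fewer genes to test.

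The labels give replicate numbers without saying whether they pair the mice. Deviations of same-numbered microglial sums correlated at -0.37 to 0.12, and 3 of 6 Lrg1-/- libraries correlated best with their own number. With so few libraries, these values do not decide whether same-numbered libraries shared a batch. With the replicate block the counts in microglial cells were 0 for MCAO/R in WT mice, 2 between sham genotypes and 0 for the difference in the effect of surgery, and 8, 9 and 0 over all cell types. With the block Ccl3 in WT microglial cells had 1.48 (adjusted p = 0.061). With it 229 results, tests and counts together, stayed the same, 43 lost the call, 2 gained it and 6 counts moved by more than 1.5 times. The direction of a test called neither time was not compared.

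Of all calls of members, 8 of 18 in microglial cells and 4 of 10 in border-associated macrophages were lost without some library, and 53 of 80 in other cell types. Under some other setting, 10, 3 and 50 were lost in the same order. Thinned cells, at least 50 cells and sham + WT replicate 2 left out gave no value for some low genes or pericytes. With 2 MCAO/R + WT mice, and 29 and 44 border-associated macrophages in the libraries with fewest, small differences could be missed.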
